A study of Helianthus annuus with 8 samples.

Results

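The set described here consists of the 200 brightest probes of untreated sunflower leaves on a custom 1-colour (Cy3) Agilent microarray. Its members were taken from the 40169 sunflower probes that have a single spot on the array, out of 40243 sunflower probes in all. A probe qualified if the scanner software called it well above background on all 5 control arrays, which 26899 probes did. The 200 probes with the highest mean deposited log2 value over these 5 arrays were then kept, so the control values chose the members, and what those values show is a description without a test. The cut was gradual. The last 2 members, CUST_38444 and CUST_16771, had means of 16.13 and 16.11, and the next 2 probes, CUST_11648 and CUST_9267, both had 16.09. Probe names are given without the suffix that all of them share.

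Leaves came from field-grown plants of the hybrid VDH 481 at 2 ages given in the labels, 45 and 50 days. At 45 days there were 2 untreated controls and 2 samples of mild water deficit, imposed with a soil cover from 10 days before flowering that lowered soil humidity by about 40%. At 50 days there were 3 untreated controls and 1 head excision sample, from plants whose flower had been cut off 4 days before flowering to take away the reproductive sink. All plants shared the hybrid and the field, and by the methods each sample of the water deficit experiment pooled plants of 1 plot, so replicates are plots and not single plants. The paper describes the younger leaf as older than the labels do, puts the soil cover closer to flowering, and gives no account of the head excision array. The 4 arrays of each age lay on 1 slide of their own, so age and slide cannot be told apart, while each treatment was compared with controls on its own slide.

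A working leaf devotes much of its messenger RNA to a limited number of genes. In green leaves these typically include the small subunit of Rubisco, the enzyme that fixes carbon dioxide, and the chlorophyll a/b binding proteins of the light-harvesting antenna, with further genes for photorespiration, translation and water channels. Drought is known to lower many photosynthesis transcripts of leaves, and removing the head takes away the main destination of the leaf's sugars. Which of these genes the 200 probes represent could not be read here. The files name each probe only by a design number, and 0 of the 40243 names matched the sunflower gene table used, so no gene name, function, sequence or position is given for any member, and the lists of leaf genes and of cell type markers could not be applied. The brightness of a probe also depends on how well its sequence binds. The members are therefore called the brightest probes, and whether they mark the most abundant transcripts was not tested. The sample is whole leaf tissue, in which fewer cells of a type and less RNA per cell cannot be told apart.

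All 200 members were well above background on all 8 arrays, and none was marked as saturated or as an outlier spot. Their processed signals, in the scanner's arbitrary units after background subtraction, ran from 33363 to 614030 on the control arrays. The brightest of the 10 spike-in transcripts added to the RNA reached 499885 (geometric mean of 8 arrays), and 4 members exceeded it. Nearly all member values came from the scanner's low-gain reading, for all 200 members on 7 arrays and for all but 1 on the head excision array, against 1.85% to 2.71% of all probes. Control replicate 2 at 45 days stood apart, with the lowest median signal over all probes, 89.1 units against 108 to 145 on the others. Its effect on the water deficit results is given with them.

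The 200 probes, 0.498% of the probes with a single spot, held a large part of the summed signal of all such probes in control leaves. Their share was 39.5% and 44.9% on the 2 controls of 45 days, and 34.4%, 38.4% and 36.8% on the 3 controls of 50 days. The 5 brightest members alone held 2.11% to 2.80% and the 10 brightest 4.06% to 5.23% over the 8 arrays. No single probe dominated. The brightest 100 probes held 27.4% of the signal on average over the controls, the 200 members 38.8% and the brightest 400 probes 50.4%.

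Under water deficit the members held 37.8% and 37.4% of the signal, below both controls of their age. The mean difference was -4.59 percentage points. Without control replicate 2 it was -1.92 points, and without control replicate 1 it was -7.26 points. In these unscaled signals, both the members and the other probes were brighter under water deficit, the others by more. The mean signal of a member was 241800 and 247820 units under water deficit and 212094 and 228012 units in the controls, and that of the other probes 1992 and 2073 units against 1624 and 1402 units. An exact permutation test of 2 arrays against 2 cannot give a two-sided p below 0.333, and no p is given for the share. The head excision array, at 35.2%, lay within the range of its 3 controls. Because the rule favours probes that were bright on these very controls, the shares were also computed for 200 probes chosen only on controls of the other age. These gave 39.0% and 44.1% in the controls of 45 days against 37.0% and 36.7% under water deficit, and 33.3%, 37.8% and 36.0% in the controls of 50 days against 34.1% after head excision.

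**Figure D1:**
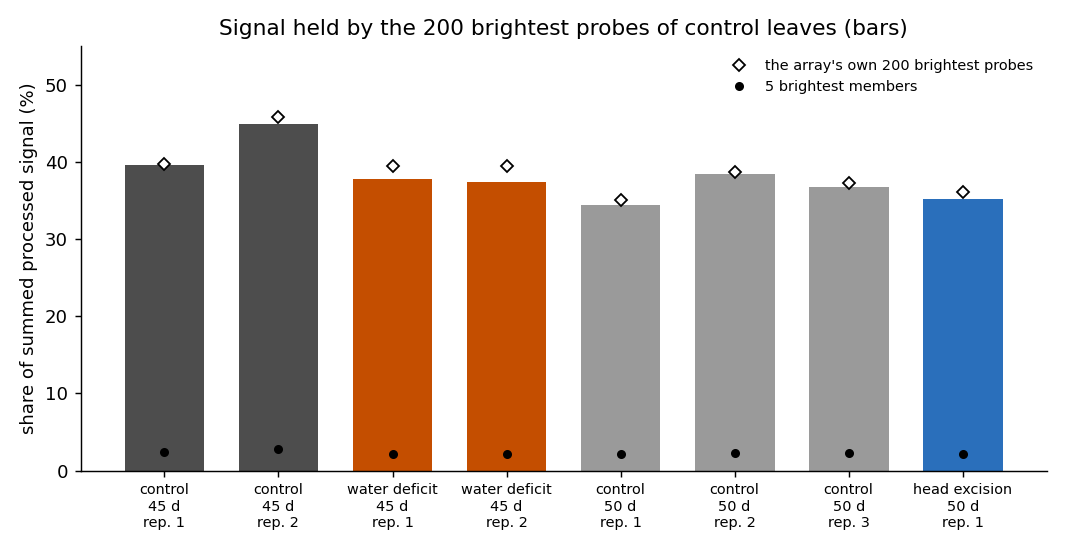
Share of the summed processed signal (percent, y axis) held by the 200 members on each of the 8 arrays (bars), with the share of each array's own 200 brightest probes (diamonds) and of the 5 brightest members (dots). Both water deficit bars, 37.8% and 37.4%, lie below the 45-day controls, 39.5% and 44.9%, of which replicate 2 is the highest bar.

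Most members stayed near the top on every array. The water deficit and head excision arrays were not used to choose the members, and 163 and 161 of the 200 were among the 200 brightest probes of the 2 water deficit arrays and 172 of the head excision array. On the control arrays, which the rule used, the counts were 188 and 173 at 45 days and 175, 186 and 180 at 50 days. At least 188 members were among the 400 brightest of every array, and 131 were among the 200 brightest of all 8. On each array the 200 brightest probes held only slightly more than the members did, for example 39.4% and 39.5% under water deficit. With members chosen only on controls of 50 days, which the water deficit comparison does not use, 155 and 153 were among the 200 brightest of the water deficit arrays, against 179 and 164 on the controls of 45 days. CUST_8396 lay far down the order of 2 arrays, ranking 2192 on the head excision array and 925 on water deficit replicate 2. On the latter other members were low too, with 188 of the 200 among its 400 brightest and CUST_11122 at rank 666.

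Water deficit was then compared with control at 45 days probe by probe, on log2 signals that were quantile normalized, a step that gives every array the same distribution of values. No member passed the test. With limma and Benjamini-Hochberg adjustment over 40243 probes, the number of members with an adjusted p below 0.05 was 0, where 1.82% of all probes (734) and 1.91% of the other probes detected in controls passed. The count over all probes depended on single arrays, with 6 and 5 probes without control replicates 2 and 3 of 50 days, which the contrast itself does not use. The lowest adjusted p of a member was 0.056. Before adjustment 26 members, 13.0%, had a p below 0.05, of which 20 were lower and 6 higher, against 23.7% of all probes. The members' differences were small. Their median was -0.02 on the log2 scale, with the middle 50% between -0.22 and 0.15, and the median over all probes was also -0.02. A difference of at most 0.5 either way was seen in 172 members (86.0%) and in 62.9% of all probes. The median half-width of the 95% confidence interval of a member's difference was 0.43, and the whole interval lay between -1 and 1 for 153 members.

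Most of the members that stood far from their controls were lower. A difference below -1 on the log2 scale was measured in 12 of the 200 members and one above 1 in 2. Over all 40243 probes, 2681 differences were below -1 and 3270 above 1, and over the 26699 other detected probes 1754 and 1707. Past 1 either way lay 7.0% of members, 14.8% of all probes and 13.0% of the other detected probes. Falls past 1 were thus about as frequent among the members as among the other detected probes, while rises past 1 were scarcer. Among the next 200 probes by brightness the counts were 26 and 2. Choosing probes for brightness in these controls favours lower values in the treated arrays, so the list chosen on the controls of 50 days is given beside it, with 15 differences below -1 and 3 above 1. The 12 members below -1 had a median difference of -1.50. All lay outside the 200 brightest probes of both water deficit arrays, and 11 reached an unadjusted limma p below 0.05. Both counts come from the values by which the 12 were picked and add no support. None of the 50 brightest members was among the 12. There 49 of 50 differences were within 0.5, followed by 46, 43 and 34 in the next groups of 50, although quantile normalization leaves the very brightest probes little room to differ. Overlap of arrays alone was also counted, after quantile normalization. Both water deficit values lay above both control values for 62 members (31.0%), against 24.4% of all probes and 27.9% of the other detected probes. Both lay below for 68 (34.0%), against 29.5% and 34.1%. Without control replicate 2 at 45 days, 17 members were below -1 and 2 above 1. Without control replicate 1 these counts were 6, 0 and 14, and without water deficit replicate 2 they were 12, 0 and 10.

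The lowest differences under water deficit were those of CUST_41068 and CUST_11122, neither of which passed the test. CUST_41068 read 18.24 and 17.52 (log2 signal) in the controls, 16.09 and 15.19 under water deficit, 17.32, 17.63 and 17.35 in the controls of 50 days and 17.26 after head excision. CUST_11122 read 17.81 and 17.17 in the controls, 15.80 and 14.81 under water deficit, 16.81, 17.22 and 16.87 in the controls of 50 days and 16.76 after head excision. For both, only the water deficit arrays were low, and they did not overlap with any other array. The differences were -2.24 (SE 0.38, 4.72-fold lower, limma adjusted p = 0.056) and -2.18 (SE 0.39, 4.55-fold lower, limma adjusted p = 0.060). With 1 array left out they ranged from -2.68 to -1.78 and from -2.67 to -1.68. Both probes followed each other closely. The difference between their log2 values kept between 0.30 and 0.51 over the 8 arrays (SD 0.073), and whether they represent 1 gene cannot be read from the files. Head excision left both near their controls, with differences of -0.18 (SE 0.44) and -0.20 (SE 0.45).

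The highest differences were those of CUST_41245 and CUST_30118. CUST_41245 read 16.73 and 17.41 in the controls, 17.98 and 18.22 under water deficit, 18.32, 18.92 and 18.57 in the controls of 50 days and 19.00 after head excision. CUST_30118 read 15.16 and 16.00 in the controls, 16.32 and 16.85 under water deficit, 16.85, 18.17 and 17.67 in the controls of 50 days and 18.46 after head excision. In both, the controls of 45 days were the lowest arrays and the head excision array was the highest. The water deficit differences were 1.04 (SE 0.30, limma adjusted p = 0.124) and 1.00 (SE 0.52, limma adjusted p = 0.320), neither of which passed. They depended on the control array used, at 0.70 and 0.59 without control replicate 1 and at 1.34 and 1.41 without control replicate 2 of 45 days. Between the controls themselves, 50 days exceeded 45 days by 1.53 and 1.98, more than water deficit did, with slide and age inseparable. CUST_30118 had the largest such difference of any member. Over all members the difference between control ages had a median of -0.03 and a range of -1.07 to 1.98.

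**Figure D2:**
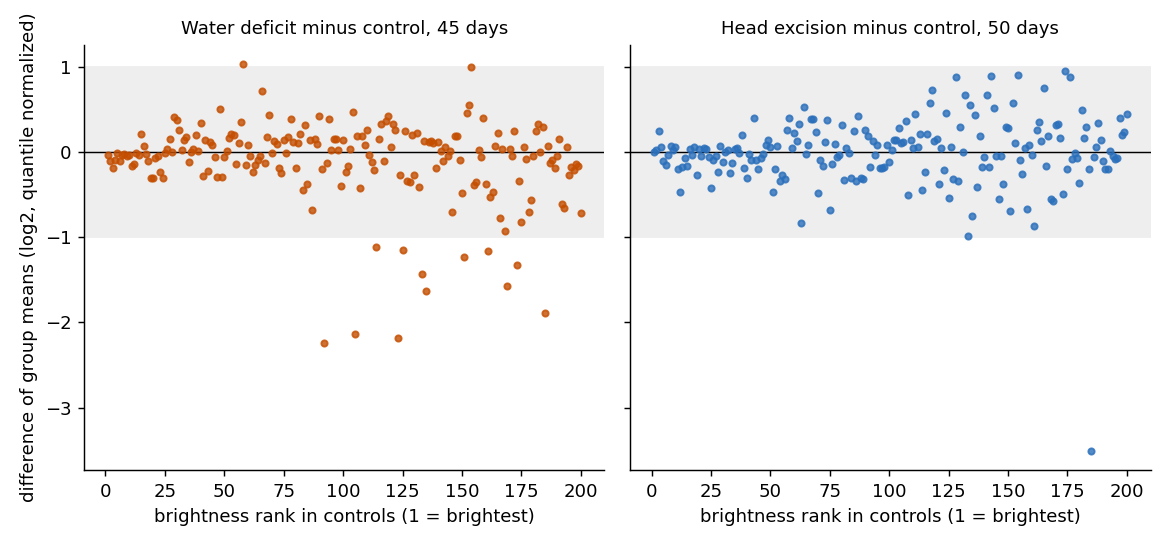
Difference from the control mean (log2, quantile normalized, y axis) of each of the 200 members against its brightness rank in the controls (x axis), for water deficit at 45 days (left) and head excision at 50 days (right), with the band from -1 to 1 shaded. Differences widen towards the dimmer members, and of the 14 members outside the band on the left 12 lie below it, against 1 on the right.

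**Figure D3:**
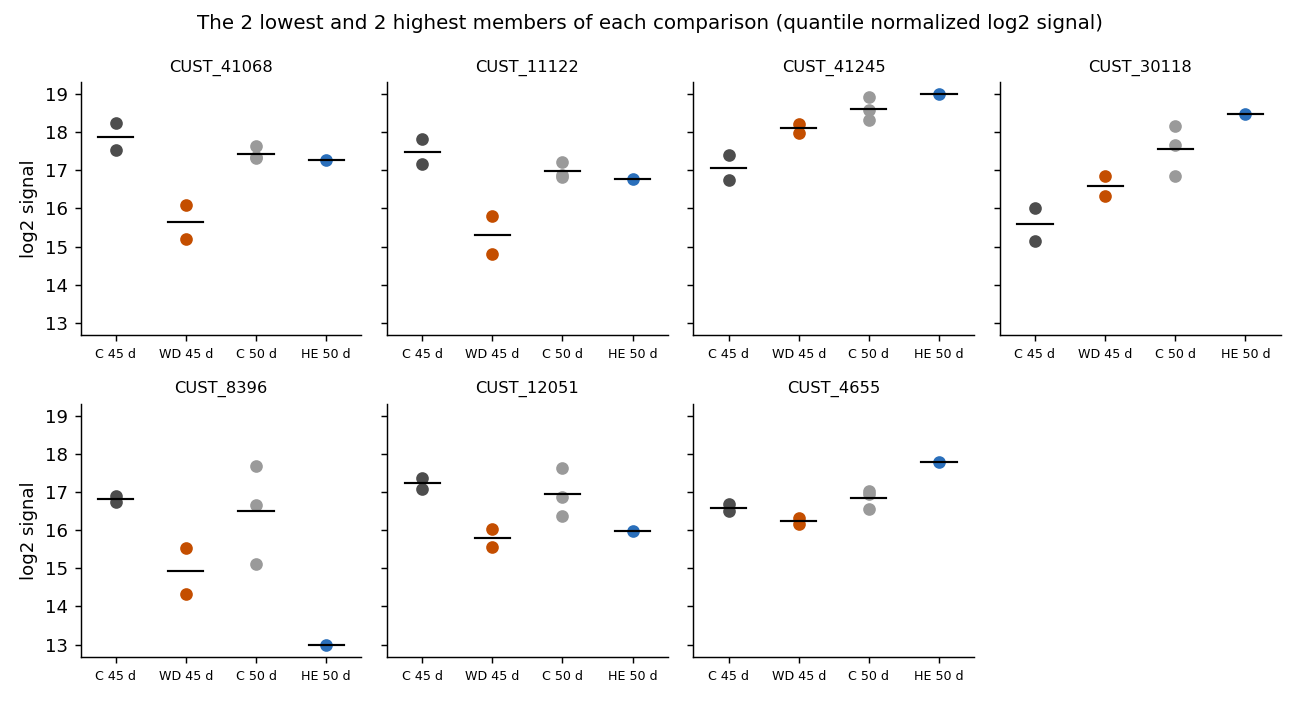
Quantile normalized log2 signal (y axis) in each of the 8 arrays (points) for the 2 lowest and 2 highest members of each comparison, 7 probes in all because CUST_30118 is in both, grouped as control (C), water deficit (WD) and head excision (HE) at their age in days, with group means as bars. CUST_41068 and CUST_11122 are low only under water deficit, between 14.81 and 16.09.

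The members' level as a set under water deficit depended on the scaling between arrays. With quantile normalization the members' median under water deficit, -0.02, was close to that of the other probes detected in controls, -0.06, with 93 members higher and the rest lower. Scaled instead to each array's 75th percentile, 179 members were lower and 21 higher, with a median of -0.35 against -0.05 in the other detected probes. There 113 members had both water deficit values below both control values, against 33.7% of the other detected probes. Only 1 member had both above, against 27.8%. Scaled to the spike-ins the medians were -0.10 and 0.20. Under both of these scalings the members thus lay about 0.3 below the other probes (-0.29 and -0.30). The values depended on which control of 45 days was used. On the 75th percentile scale the member median of control replicate 2 of 45 days stood 0.46 above the mean of the 5 controls. It was 0.05 for control replicate 1, -0.10 and -0.12 for the water deficit arrays and -0.33 to 0.01 for the controls of 50 days. Without that array the members' median was -0.12 and that of the others -0.03, and without control replicate 1 the members' median was -0.57. The 200 probes chosen on controls of 50 days gave -0.35 with all arrays.

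The signals before any scaling hold the same gap, because those 2 scalings move all probes of an array alike. Water deficit minus control, the log2 processed signals had a median difference of 0.15 for the members and 0.44 for the other detected probes, while the 8 brightest spike-ins differed by 0.12 to 0.32, with 0.12 for the brightest. The median signal over all probes, 108 and 89.1 units in the controls and 144 and 145 under water deficit, moved with the treatment, and its part in the result was not tested. On the 75th percentile scale the shift was not particular to the first 200. It was -0.37 for the next 200 probes by brightness, -0.25 for the 600 after them and -0.16 for the 4000 after those. On that scale 4 of the 200 members passed an adjusted p of 0.05 in limma, all lower, CUST_41068 and CUST_11122 among them, where 2.42% of all probes passed.

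Head excision was compared with the 3 controls of 50 days, with 1 array on the treated side, whose spread is taken from the other groups. No member passed the test here either. The number of members with a limma adjusted p below 0.05 was 0, where 0.271% of all probes (109) passed, and the lowest adjusted p of a member was 0.336. Before adjustment 18 members, 9.0%, had a p below 0.05, 13 lower and 5 higher, against 8.76% of all probes. The median difference was 0.02 on the log2 scale, 173 members lay within 0.5, and 1 member differed by more than 1. The whole 95% confidence interval lay between -1 and 1 for 148 members. The array lay above all 3 controls for 54 members (27.0%), against 25.7% of all probes and 27.1% of the other detected probes, and below all 3 for 62 (31.0%), against 29.4% and 28.6%. For head excision the sign of the set turned with the scaling. Quantile normalization gave 104 members higher and 96 lower, 75th percentile scaling 64 higher and 136 lower (median -0.075), and spike-in scaling 147 higher and 53 lower (median 0.19). The members' median minus that of the other detected probes was -0.06 under 75th percentile scaling. Spike-in scaling gives the same gap, since both move all probes of an array alike.

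The 1 member far from its controls after head excision was CUST_8396. It read 15.12, 16.67 and 17.68 (log2 signal) in the controls of 50 days and 12.98 after head excision, a difference of -3.51 (SE 1.01, 11.4-fold lower, limma adjusted p = 0.443). The size rested on single controls, with -4.23 without control replicate 1 and -2.90 without control replicate 3 of 50 days. At 45 days it read 16.90 and 16.75 in the controls and 15.53 and 14.33 under water deficit, a difference of -1.89 (SE 0.88, limma adjusted p = 0.271). It was the least reproducible member, with an SD of 1.05 between controls of the same age, and its 3 controls of 50 days alone ran from 15.12 to 17.68. The next lowest was CUST_12051, at 16.38, 16.88 and 17.63 in the controls and 15.97 after head excision (difference -0.99, SE 0.50, limma adjusted p = 0.664, and -0.66 without control replicate 3). Under water deficit it read 16.04 and 15.56 against 17.38 and 17.07, a difference of -1.43 (limma adjusted p = 0.134). Both probes were thus lower than all their controls under each treatment, without passing the test in either. They were named among members whose head excision value did not overlap the controls, so that part was fixed in advance. Under both treatments 20 members lay below all their controls and 14 above, while 43 lay outside them in opposite directions. The shared direction is therefore not read as a trait of both probes.

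The highest difference after head excision was that of CUST_4655, which read 16.94, 17.02 and 16.55 in the controls of 50 days and 17.79 after head excision (difference 0.96, SE 0.22, limma adjusted p = 0.336). Under water deficit it read 16.16 and 16.32 against 16.49 and 16.68 in the controls, a difference of -0.34 (SE 0.19). The groups did not overlap in either comparison and the direction was opposite, as in 43 members. For head excision the lack of overlap was a condition for naming CUST_4655. CUST_30118 came second, 0.90 above its controls (SE 0.60, limma adjusted p = 0.769), and 0.53 above them without control replicate 1.

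Both treatments were set side by side, since they rest on different control arrays. Of the 200 members, 48 were higher and 51 lower under both, and the others had opposite signs, 45 of them higher and 56 lower under water deficit. The same sign was thus seen in 49.5% of members, against 54.7% of all probes. Pearson's r between the 2 differences was 0.38 across members, 0.28 without CUST_8396, and Spearman's rho was 0.09, as a description across probes that share arrays and normalization. Of the 12 members below -1 under water deficit, 11 were also below their controls on the 1 head excision array. The 12 had a median head excision difference of -0.55, and 5 of them stayed within 0.5. The same share was not counted among other probes, so the count is not read as a trait of the members. The difference between the 2 effects was tested in the same limma fit, and 0 members passed an adjusted p of 0.05, with a lowest value of 0.183, where 0.244% of all probes (98) passed. Before adjustment 24 of the 200 members had a p below 0.05, against 14.7% of all probes.

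**Figure D4:**
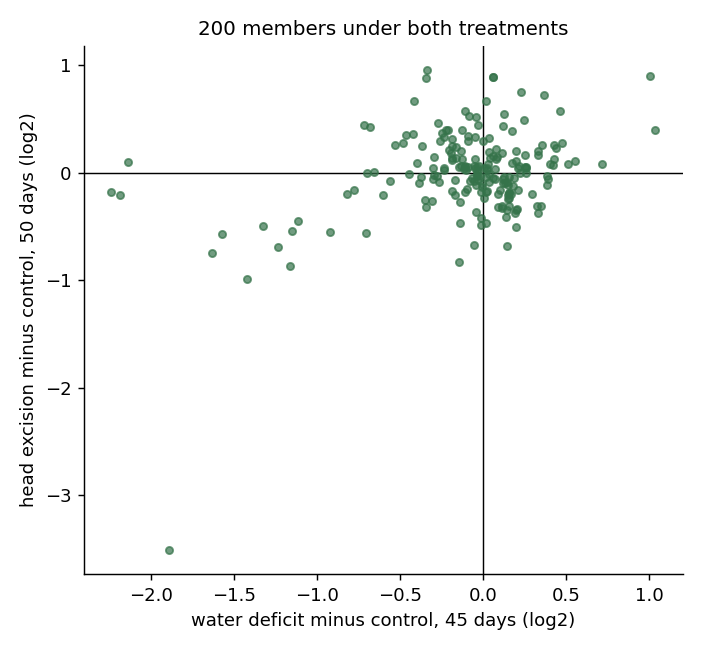
Difference after head excision at 50 days (log2, y axis) against the difference under water deficit at 45 days (log2, x axis) for each of the 200 members. Most points gather around 0, and CUST_8396 is the point at -3.51. Of the 12 members below -1 on the x axis, 11 are below 0 on the y axis, a share not counted for other probes.

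The spread of the members between control samples again depended on the scale. The SD between controls of the same age, pooled over both ages, had a median of 0.17 log2 units over the members after quantile normalization, against 0.24 over the other detected probes. An SD above 0.5 was found in 17 members (8.5%) and in 14.6% of the others. Within the set, spread rose as brightness fell, with medians of 0.08, 0.15, 0.21 and 0.31 in successive groups of 50, and 0.27 in the next 200 probes. Scaled to the 75th percentile, the order turned round, with 0.31 for the members and 0.24 for the others. Without control replicate 2 of 45 days the values on that scale were 0.25 and 0.22. After each array was centred on the members' own median the SD was 0.17, so a common shift of the members on single arrays made up much of the spread on that scale. In unscaled signals it was 0.19 for the members and 0.27 for the others. The 2 water deficit arrays, which the rule did not use, differed from each other by an SD of 0.06 over the members and 0.15 over the others, and the values were also 0.06 and 0.15 on the 75th percentile scale.

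**Figure D5:**
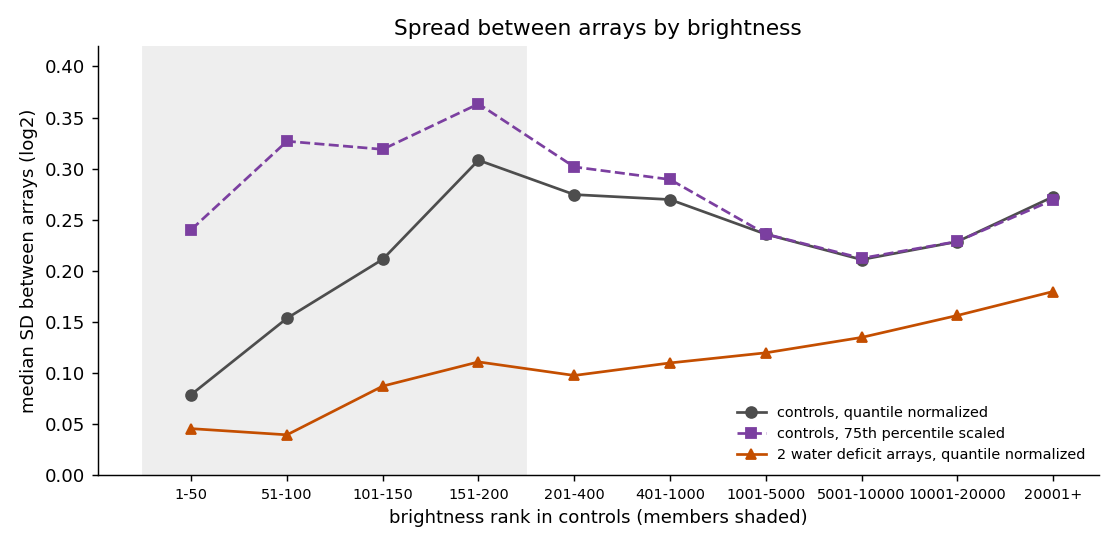
Median SD between arrays of the same group (log2, y axis) in bands of brightness rank in the controls (x axis, members shaded), for controls after quantile normalization (circles) and 75th percentile scaling (squares) and for the 2 water deficit arrays after quantile normalization (triangles). The 2 control curves differ among the brightest probes, 0.08 against 0.24 at ranks 1 to 50, and meet beyond rank 1000.

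The brightest member, CUST_25719, read 596006 and 614030 units (processed signal) in the controls of 45 days, 634161 and 610417 under water deficit, 562783, 593364 and 603595 in the controls of 50 days and 584239 after head excision. Its signal varied little over all 8 arrays, and its groups overlapped in both comparisons. The next 4 by deposited value were CUST_39061, CUST_38415, CUST_11315 and CUST_29234. Their differences on the log2 scale ranged from -0.19 to -0.01 under water deficit and from -0.10 to 0.25 after head excision, none of which passed the test. CUST_39061 also had the smallest SD between controls, 0.017, followed by CUST_8569 at 0.020. At such ranks these figures are held down by the normalization, which gives a probe of the same rank the same value on every array. At the other end, CUST_16771, the last member of the list, read 16.72 and 15.73 in the controls of 45 days and 17.82, 16.00 and 16.18 in those of 50 days, and had the second largest SD, 0.91.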

How the data were processed

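RNA of 8 leaf samples was hybridized to 1-colour arrays, 1 per sample. The authors deposited 1 scanner file per array, with an intensity per spot on a linear scale that Agilent Feature Extraction had background-subtracted and not normalized between arrays. The labels name version 9.1 of that software and the file headers 10.7.1.1. The authors also deposited log2 values for 40243 probes. The table does not state its processing. The study's methods describe normexp with an offset of 1 and quantile normalization, and the sorted values of the 8 columns differed by a median of 0.012 log2 units. The columns were matched to the arrays by sample, and each agreed best with its own array's signals (Pearson's r across probes). They served only to choose the members and as an alternative.

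Processed signals were corrected by normexp (offset 1), put on the log2 scale and quantile normalized over 8 arrays, spots of a probe were averaged, and limma 3.58.1 in R 4.3.3 was fitted with 1 mean for each of 4 groups. The Benjamini-Hochberg adjustment ran over all 40243 probes, with a threshold of 0.05. The 4 arrays of each age shared a slide, and contrasts were made within slides. Confidence intervals are two-sided 95% intervals from the moderated t distribution. Shares of signal used unnormalized processed signals of probes with 1 spot. The fit was run on simulated data of the water deficit comparison in which 200 of 40243 probes had a known difference. Of these, 0 passed the threshold at 1 log2 unit, 93 at 2 and 155 at 4, along with 0, 3 and 10 of the remaining probes. The simulated spreads were drawn from all probes, whereas the members had a smaller median SE than the other detected probes (0.17 against 0.22). The counts therefore do not give the power for the members. The number of arrays limits the precision.

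Probes were named by rule: the 5 brightest members, the probes at either side of the limit of the list, the 2 largest changes each way in each comparison (if none passed the test, among members whose arrays do not overlap), and the 2 members with the largest and the 2 with the smallest SD between controls. The members, lists and rule were chosen with earlier results of these data known. Lists of function and cell type needed gene names and were not applied.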

Additional observations from a re-analysis of the deposited data

How the results depend on the processing

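For water deficit, 0 members passed the test in the main setting. The count was 4 with 75th percentile scaling (2.42% of all probes tested passed), 1 with spike-in scaling (2.24%), 2 with a normexp offset of 50 (2.85%), 3 when only detected probes were tested (4.79%) and 5 for the brightest 400 probes (1.25% of them), and 0 in the other settings. Over all probes, 734 passed, between 5 (without control replicate 3 of 50 days) and 703 (without control replicate 2 of 45 days) with 1 replicate left out, and 0 with the replicate block. The median was -0.35 with 75th percentile scaling (-0.12 without control replicate 2 of 45 days, -0.35 for members chosen on the 50-day controls) and -0.10 with spike-in scaling, and -0.05 to 0.0025 with 1 replicate left out. For head excision 0 members passed in every setting tried, and the 109 probes called over all probes became 27 to 104 with 1 replicate left out. Its median of 0.02 became -0.075 with 75th percentile scaling, 0.19 with spike-in scaling, -0.025 with the replicate block, 0.0051 for members chosen on 45-day controls, -0.024 for the brightest 100 and 0.050 for the brightest 400, and -0.0056 to 0.022 with 1 replicate left out. A median this close to 0 has no stable sign. The share of signal over controls, 38.8%, was 34.1% from the deposited values, 27.4% for the brightest 100 and 50.4% for the brightest 400. Its difference under water deficit, -4.59 points, was -0.66 points from the deposited values, which were already normalized, and -7.26 to -1.92 points with 1 replicate left out. With the replicate number as a block, 0 members passed in either comparison. The numbers are not known to mark shared plots. Same-numbered arrays correlated in their deviations by 0.03 to 0.48 over 6 pairs. These pairs are not independent, since the deviations of 2 arrays of a group mirror each other. Both same-numbered pairs of control and water deficit therefore gave 0.29. Pairs with different numbers ranged from -0.48 to 0.18. Of the values of named probes in other settings, 286 kept direction and side of the threshold, and CUST_41068 and CUST_11122 passed the threshold under 75th percentile scaling. The sign turned in 11, none of which passed, and 1 came to 0. With 75th percentile scaling the head excision differences of CUST_25719, CUST_39061 and CUST_11315 were -0.074, -0.078 and -0.061, and with the replicate block those of CUST_11315, CUST_38444 and CUST_16771 were -0.027, -0.081 and -0.30. With 1 replicate left out, the head excision differences ranged from -0.0076 to 0.028 for CUST_25719 and from -0.0036 to 0.10 for CUST_11315, and the water deficit differences from -0.055 to 0.039 for CUST_29234 and from -0.35 to 0.023 for CUST_38444. The array-wise centring, the 75th percentile settings without an array or with other members, the comparison of both effects, the counts with 1 array left out and the counts among the brightest 400 were chosen after seeing the data.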

Other observations

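Members were spread unevenly over the probe numbers of the array design, which run from 1 to 41610. The files do not state what the numbering follows. Over all numbers, 0.744% of the probes detected on every control were members. Numbers 7501 to 12500 held 60 members among 3994 detected probes, numbers 1 to 7500 held 23 among 6245, and numbers 12501 to 25000 held 11 among 7491. The highest share was in the last stretch, from 40001 on, with 25 members among 969 detected probes (2.58%). The pattern was noticed after the values were seen and was not tested.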
